A study of Mus musculus with 4 samples.

Results

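The 42 genes described here act in DNA replication and in homologous repair and were chosen by gene symbol. All 42 were found among the 25793 symbols of each deposited count table. The study measured gene expression by RNA sequencing in 4 mouse liver libraries. By its label, each tumour (1 and 2) has the genotype beta-2SP+/- and SMAD3+/-, with 1 copy lost of beta-2 spectrin (gene Spnb2), an adaptor of SMAD proteins, and of Smad3, which carries TGF-beta signals to the nucleus. Of the normal livers, 1 carries the same double heterozygous genotype and the other is wild type. The labels give no age, sex or treatment, and they do not name the animals, so the p-values measure only the spread between these samples, which may be technical. The short sample descriptions read Elf-Tcell for tumour 1, Smad-Tcell for tumour 2, Smad-Hepatocytes for the double heterozygous normal liver and mHepatocyte for the wild type one. These words do not match the labelled tissue and genotype. The groups follow the tissue, disease and genotype labels, so whether the tumours share 1 genotype, and what a difference between them compares, is uncertain.

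Gene counts ran from 11049931 in tumour 1 to 18448621 in the wild type normal table. The normal tables shared counts beyond sampling noise. Equal counts were found in 56.8% of the 2632 genes whose mean there was 1 to 5, where separate libraries of these depths would give 22.0%. In the tumours, 13.1% of 2299 such genes had equal counts. Their rounded mean therefore served as 1 normal library, and every test rests on the spread between the tumours. The targeted gene Spnb2 had 16607 (tumour 1), 19149 (tumour 2), 3364 (double heterozygous) and 3549 (wild type) counts, and Smad3 had 4521, 2174, 426 and 460, so neither was lower in the heterozygous tumours than in wild type liver. The 10 hepatocyte markers summed to 236077 CPM (counts scaled to library size and between libraries by TMM) in normal liver and to 1887 and 310 CPM in tumours 1 and 2, of which Apob alone gave 1719 and 150 CPM. The other 9 summed to 168 and 160 CPM in the tumours, with Alb at 8.29 and 43.3 CPM. Of 10 T cell markers, 7 were at 0 counts in both tumours, among them Cd3d, Cd3e, Cd3g, Cd4 and Cd8a.

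DNA is copied once per cell cycle. In G1 phase, CDC6 and CDT1 load the MCM2 to MCM7 ring onto replication origins. In S phase, GINS and MCM10 help turn the ring into a moving helicase, and polymerases held by the PCNA clamp copy both strands. E2F transcription factors, held back by the retinoblastoma protein in resting cells, switch on most of these genes at the G1/S boundary. Homologous repair rebuilds broken or stalled forks from the sister chromatid and is active in the same phases. Adult hepatocytes divide rarely, so most of these genes are known to be near silent in resting liver.

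The promoters are shown first because E2F control is what these genes are best known to share. RefSeq promoter windows on GRCm38.p6, from 250 bases before to 50 bases after a transcription start, were found for 35 of the 42 genes. The counts were made on another build (mm9), so these windows serve for sequence and not for placing reads. An E2F site was defined as TTTCCCGC, TTTCGCGC, TTTGCCGC or TTTGGCGC on either strand. Such a site was present in the windows of 15 of the 35 genes (42.9%). The same search found it in 4.39% of 9518 genes tested for expression that have a window and in 2.60% of all 27025 genes of the promoter table. The 15 genes were Mcm3, Mcm5, Mcm6, Mcm7, Cdc6, Cdt1, Pola1, Pold1, Rfc3, Lig1, Uhrf1, Dnmt1, E2f2, E2f7 and Brca2. A gene counted when any of its windows held a site, and sites on opposite strands can overlap, as they do in Mcm5 and Mcm6. A match is a description of these letters, and genes without one may use other forms of the site. Bases 200 to 1 before the start are printed for 6 genes with a site there, which cover helicase, loading, polymerase, methylation and E2F functions, and for Mcm10 and E2f8, the genes that stood above both tumours in normal liver. Capitals mark the E2F sites in the first 6, the box CCAAT in Mcm10, and in E2f8 the box CCAAT and the cell cycle homology region (CHR) element TTTGAA, each on either strand. On GRCm38.p6 the stretches are chr1:128359706-128359905 (minus strand) for Mcm6, chr8:75109309-75109508 (plus) for Mcm5, chr11:98907951-98908150 (plus) for Cdc6, chrX:93632156-93632355 (minus) for Pola1, chr17:56304113-56304312 (plus) for Uhrf1, chr10:110745239-110745438 (plus) for E2f7, chr2:5012792-5012991 (minus) for Mcm10 and chr7:48881597-48881796 (minus) for E2f8.
Mcm6: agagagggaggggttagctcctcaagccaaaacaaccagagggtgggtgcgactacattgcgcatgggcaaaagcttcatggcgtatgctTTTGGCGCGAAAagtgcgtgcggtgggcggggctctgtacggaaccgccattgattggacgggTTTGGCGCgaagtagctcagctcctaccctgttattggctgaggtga
Mcm5: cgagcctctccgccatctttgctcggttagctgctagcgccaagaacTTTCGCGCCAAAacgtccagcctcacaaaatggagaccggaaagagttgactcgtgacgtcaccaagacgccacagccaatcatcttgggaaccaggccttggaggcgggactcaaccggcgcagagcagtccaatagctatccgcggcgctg
Cdc6: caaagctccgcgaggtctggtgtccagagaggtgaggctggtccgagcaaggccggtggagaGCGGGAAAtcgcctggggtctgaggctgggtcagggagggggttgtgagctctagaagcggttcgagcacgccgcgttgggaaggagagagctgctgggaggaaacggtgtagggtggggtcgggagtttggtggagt
Pola1: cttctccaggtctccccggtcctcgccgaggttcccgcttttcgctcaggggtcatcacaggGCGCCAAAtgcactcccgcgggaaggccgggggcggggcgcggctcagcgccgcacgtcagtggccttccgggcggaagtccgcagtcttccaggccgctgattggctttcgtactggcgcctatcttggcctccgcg
Uhrf1: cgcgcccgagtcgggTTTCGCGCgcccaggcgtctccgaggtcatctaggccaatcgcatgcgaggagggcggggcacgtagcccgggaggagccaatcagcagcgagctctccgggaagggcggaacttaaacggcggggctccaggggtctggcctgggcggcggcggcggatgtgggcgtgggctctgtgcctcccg
E2f7: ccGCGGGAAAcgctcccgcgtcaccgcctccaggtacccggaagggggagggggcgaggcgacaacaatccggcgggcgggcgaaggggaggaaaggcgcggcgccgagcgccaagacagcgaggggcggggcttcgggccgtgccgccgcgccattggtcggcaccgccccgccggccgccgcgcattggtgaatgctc
Mcm10: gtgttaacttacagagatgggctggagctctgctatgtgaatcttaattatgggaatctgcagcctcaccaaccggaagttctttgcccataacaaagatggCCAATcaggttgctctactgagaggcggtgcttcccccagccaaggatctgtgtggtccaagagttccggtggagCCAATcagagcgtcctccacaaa
E2f8: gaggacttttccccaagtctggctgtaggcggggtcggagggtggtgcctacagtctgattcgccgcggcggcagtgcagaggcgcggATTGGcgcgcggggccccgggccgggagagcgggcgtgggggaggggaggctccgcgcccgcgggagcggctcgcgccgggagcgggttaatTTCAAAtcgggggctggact

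The box CCAAT, bound by NF-Y, was present in 62.9% of the 35 genes and in 43.1% of the genes tested. The CHR element TTTGAA, known from promoters of genes of late cell cycle phases, was present in 14.3% of the 35 and in 14.5% of the genes tested. The 15 of 18 mitosis genes with a window were searched in the same way, and 6.67% had an E2F site, 86.7% the box CCAAT and 66.7% the CHR element. The 35 replication and repair genes and the 15 mitosis genes thus differed in which of these short sequences they held, although, as shown further on, both groups stood higher in tumour 2 than in tumour 1.

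**Figure D1:**
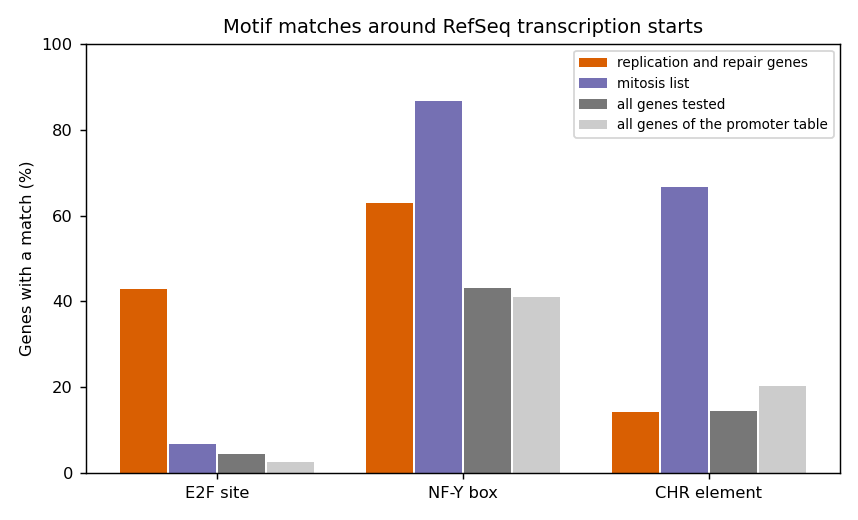
Percentage of genes (vertical axis) whose RefSeq promoter window holds an E2F site, an NF-Y box (CCAAT) or a CHR element, for the 35 replication and repair genes, 15 mitosis genes, all 9518 tested genes and all 27025 genes of the promoter table. The E2F site is found in 42.9% of the replication and repair genes and in 6.67% of the mitosis genes, while the CHR element is found in 14.3% and 66.7%.

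Against normal liver, most replication and repair genes stood higher in both tumours, and far higher in tumour 2 than in tumour 1. The median of the 42 genes was 8.72 CPM in tumour 1, 59.6 CPM in tumour 2 and 2.47 CPM in normal liver. In 34 of the 42 genes both tumours were above normal liver, where 43.1% of all 14468 genes tested were (36 under upper quartile scaling and 38 under library size alone), and in all 42 tumour 2 was above tumour 1, where 49.6% of genes were. None of the 42 passed the test against normal liver in either direction with edgeR's quasi-likelihood test (0 higher and 0 lower; adjusted p from 0.0759 to 0.948, Benjamini-Hochberg over all genes tested), where 2.23% of all genes were called higher and 5.19% lower. In 2 of the 42, Mcm10 and E2f8, both tumours were below normal liver, where 40.1% of all genes tested were. At an unadjusted p under 0.05, 15 of the 42 were higher and 0 lower, where 12.5% of all genes were higher. The median fitted log2 fold change of the 42 genes was 3.82, against 0.19 over all genes tested. Other analyses of the same counts called some of the genes: DESeq2 called 24 higher and 0 lower (12.2% and 12.8% of the genes it gave an adjusted p), edgeR with no filter on low counts called 5 higher and 0 lower (4.88% and 7.47%), and edgeR with the normal tables as separate libraries called 18 higher and 0 lower (22.6% and 23.4% of all genes), although those tables shared counts.

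**Figure D2:**
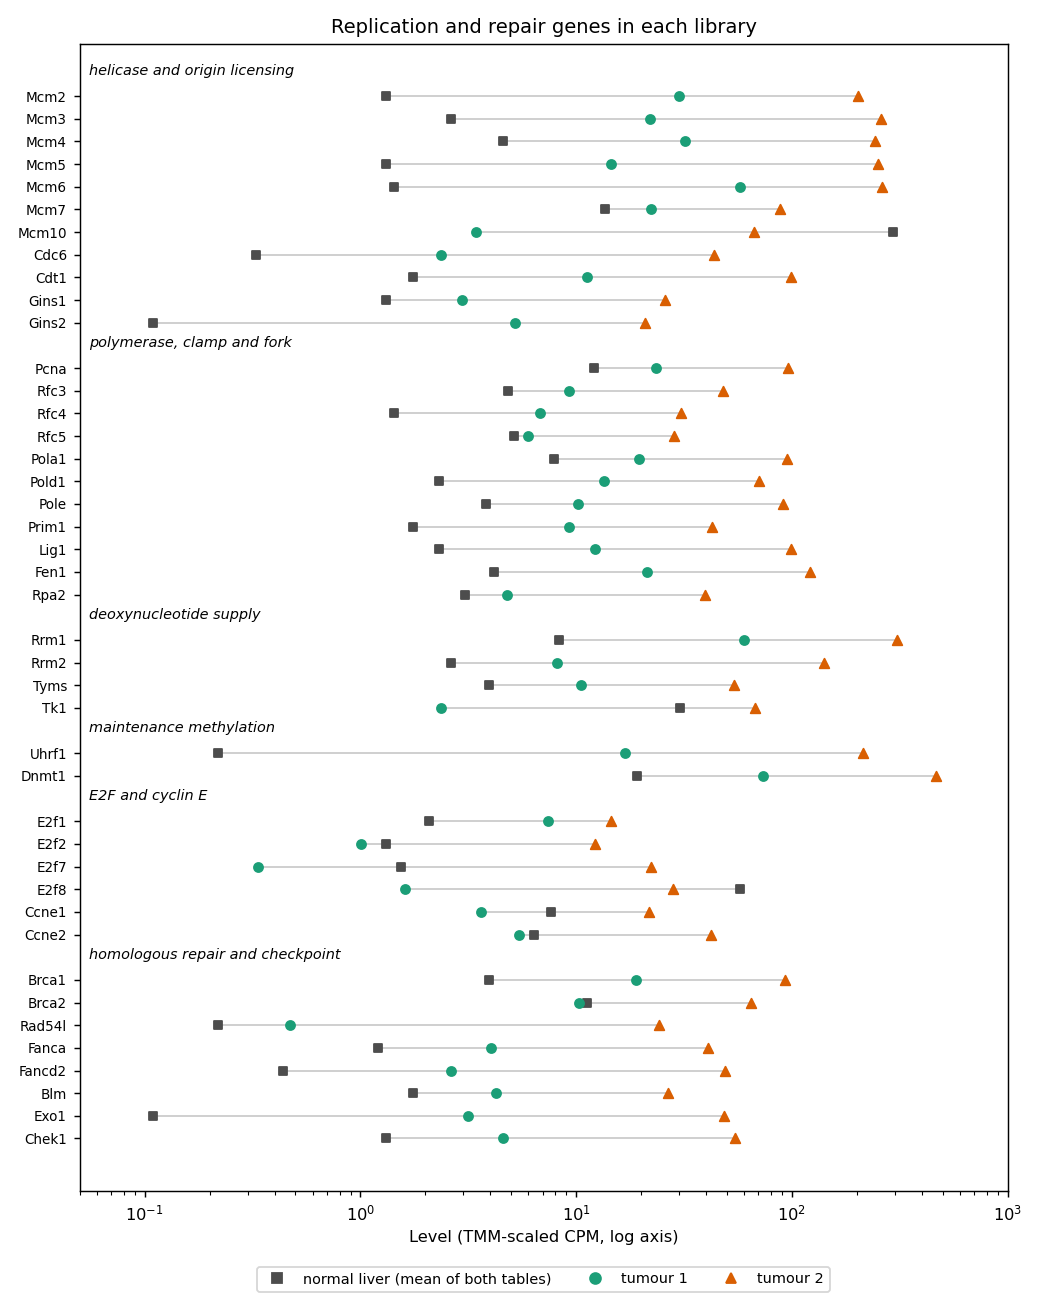
Level of each of the 42 genes in TMM-scaled CPM (log axis) in normal liver (grey squares, mean of both tables), tumour 1 (green circles) and tumour 2 (orange triangles), grouped by function. Tumour 2 lies to the right of tumour 1 in all 42 genes, and normal liver lies furthest right for Mcm10 and E2f8.

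The genes of origin licensing and the helicase showed the widest gap from normal liver among the larger groups. In 10 of these 11 genes both tumours were above normal liver, and the median fitted log2 fold change was 5.73. Mcm6, a subunit of the ring, had 858 and 4853 counts in tumours 1 and 2 and 11 and 15 in the double heterozygous and wild type normal tables. Its fitted log2 fold change of 6.79 (SE 1.50, edgeR adjusted p = 0.0759) gave the smallest p of the 42. Both tumours lay well above both normal tables, and this was also so for the partner subunits: Mcm2 had 447 and 3763 counts against 10 and 13, Mcm3 326 and 4807 against 19 and 28, Mcm4 477 and 4514 against 38 and 45, and Mcm5 216 and 4661 against 10 and 14. In tumour 1 the Mcm2 level was 22.9 times that of normal liver (exact 95% interval for counting error 13.0 to 44.6) and in tumour 2 it was 154 times (87.8 to 297).

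Mcm7, the remaining ring subunit, stood apart. It had 329 and 1650 counts in the tumours but 46 and 203 in the double heterozygous and wild type normal tables, which differed 3.82-fold after scaling to library size. In Mcm7, 31.3% of the 31-base words of its transcripts also occur in another gene, and its exons overlap those of Cops6 and Ap4m1 on the opposite strand, so its level in normal liver is uncertain. The fitted log2 fold change was 2.03 (SE 1.08, edgeR adjusted p = 0.294).

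The loading factors were low in normal liver. Cdt1, which brings the ring to the origin, had 166 and 1843 counts in tumours 1 and 2 against 14 and 18. Cdc6, the ATPase that acts with it, had 35 and 808 against 2 and 4. Few reads in normal liver support the Cdc6 ratio, and in tumour 2 it was 132-fold with an interval of 45.0 to 641, and 10.9% of its 31-base words are shared. The GINS subunit genes differed from each other in the same way: Gins1 had 44 and 483 counts against 10 and 14, and Gins2 77 and 388 against 1 and 1. Gins2 shares 64.1% of its 31-base words with other genes and overlaps Gse1 on the opposite strand.

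Mcm10 ran the other way. This gene encodes a factor that helps start the helicase, and it had 2386 and 2993 counts in the normal tables, 51 in tumour 1 and 1240 in tumour 2. Normal liver was 85.8 times above tumour 1 (65.1 to 116) and 4.43 times above tumour 2 (4.14 to 4.74). At 295 CPM, a level not scaled to gene length, it was the highest of the 42 genes in normal liver, followed by E2f8, Tk1 and Dnmt1 at 57.7, 30.3 and 19.1 CPM. No other annotated gene overlaps its exons in GENCODE M21, and 0.598% of its 31-base words are shared. The fitted log2 fold change was -3.07 (SE 1.59, edgeR adjusted p = 0.281), and between the tumours Mcm10 kept the pattern of the other genes, with tumour 2 at 19.4 times tumour 1 (14.6 to 26.2).

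Polymerase, clamp and fork genes were above normal liver in both tumours in all 11 cases, with a median fitted log2 fold change of 3.70. Lig1, which joins Okazaki fragments, had the largest, with 181 and 1842 counts in tumours 1 and 2 against 17 and 25 (log2 fold change 4.59, SE 1.69, edgeR adjusted p = 0.177). Rfc5, a subunit of the loader that opens PCNA, had the smallest, with 89 and 530 counts against 29 and 65 (1.74, SE 1.24, adjusted p = 0.409). In tumour 1, Rfc5 was at 1.16 times normal liver with an interval of 0.808 to 1.69, so a difference was not detectable at this depth, while in tumour 2 it was at 5.52 times (4.09 to 7.61).

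The catalytic polymerase genes behaved alike in order. Pola1, which starts each fragment with primase, had 289 and 1764 counts in tumours 1 and 2 against 65 and 78 in the normal tables. Pold1, of the lagging strand polymerase, had 199 and 1316 against 15 and 27, and Pole, of the leading strand polymerase, 152 and 1695 against 30 and 40. Primase itself (Prim1) had 138 and 795 counts against 12 and 21. Tumour 2 exceeded tumour 1 in these 4 genes by between 4.59-fold in Prim1 and 8.88-fold in Pole.

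Pcna, the sliding clamp, had 350 and 1789 counts in the tumours against 70 and 151, with 21.2% of its 31-base words shared with other genes. The clamp loader genes Rfc3 and Rfc4 had 138 and 894 counts against 39 and 49, and 101 and 568 against 12 and 14. Fen1, the flap nuclease, had 316 and 2260 against 37 and 39, and Rpa2, of the single-strand binding complex, 71 and 739 against 26 and 31. Rfc4, Rfc5, Pole, Lig1 and Fen1 overlap exons of other genes on the opposite strand. Fen1 shares 81.4% of its 31-base words with other genes and Rfc5 21.5%, so their levels are uncertain. The words were compared on both strands, so overlapping exons also count as shared.

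Among the deoxynucleotide genes, the ribonucleotide reductase subunits differed in how far apart the tumours were. Rrm1, the large subunit, had 890 and 5741 counts in tumours 1 and 2 against 70 and 81, a difference between the tumours of 5.14-fold (4.79 to 5.52). Rrm2, the small subunit that is known to be made in S phase, had 121 and 2618 against 17 and 30, a difference of 17.2-fold (14.4 to 20.9). The intervals for counting error did not overlap, and Rrm2 shares 13.2% of its 31-base words. Rrm2 had the largest fitted log2 fold change of this group (4.82, SE 2.12, edgeR adjusted p = 0.227). Tyms, which makes thymidylate, had 157 and 1004 counts against 27 and 45.

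Tk1, the salvage kinase for thymidine, was out of step with this group in tumour 1. It had 35 counts there, 1264 in tumour 2, and 162 and 390 in the double heterozygous and wild type normal tables, so tumour 1 lay below normal liver and tumour 2 above it. The fitted log2 fold change was 0.22 (SE 1.82, edgeR adjusted p = 0.948), and against the wild type table alone it was -0.17 (adjusted p = 0.958). The normal tables differed 2.08-fold for Tk1. Its exons overlap those of Afmid on the opposite strand, a gene that had 99 and 175 counts in the tumours and 1271 and 1531 in the normal tables. Whether strand was used in counting is not given in the sources used here, so reads from the overlapping stretch may not be told apart. Of the 31-base words of Tk1, 5.72% are shared with other genes.

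The maintenance methylation genes copy DNA methylation onto the new strand. Uhrf1, which recognises hemimethylated sites, had 249 and 3977 counts in tumours 1 and 2 against 1 and 2, and the largest fitted log2 fold change of the 42 genes (8.98, SE 2.52, edgeR adjusted p = 0.115). On so few normal reads its ratio was loose: in tumour 2 it was 974-fold with an interval of 269 to 8043, and 27.3% of its 31-base words are shared. Dnmt1, the methyltransferase, had 1094 and 8641 counts against 144 and 205 and the highest CPM of the 42 genes in each tumour, at 73.7 and 464 CPM (not scaled to gene length). Its fitted log2 fold change was 3.82 (SE 1.45, adjusted p = 0.185).

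E2F and cyclin E genes were the group in which tumour 1 did not follow tumour 2. Of these 6 genes, E2f1 alone was above normal liver in both tumours (with Ccne2 under upper quartile scaling, and with E2f2, Ccne1 and Ccne2 under library size alone), and the median log2 ratio to normal liver was -0.69 in tumour 1 and 2.71 in tumour 2. E2f1, an activating E2F, had 110 and 271 counts in tumours 1 and 2 against 17 and 21 in the normal tables. It also showed the smallest difference between the tumours, at 1.96-fold (1.57 to 2.47), below the 2-fold that the other 41 genes exceeded. E2f2, a second activator, had 15 and 228 counts against 12 and 13.

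The repressor E2F genes were low in tumour 1. E2f7 had 5 counts in tumour 1, 416 in tumour 2 and 13 and 15 in the normal tables. It differed most between the tumours of all 42 genes, by 66.3-fold (28.2 to 205), and had the largest fitted log2 fold change of its group (2.88, SE 2.54, edgeR adjusted p = 0.495). E2f8, its close relative, had 24 counts in tumour 1, 526 in tumour 2 and 469 and 583 in the normal tables, so that normal liver was above both tumours (above tumour 1 only when scaled by library size alone), 35.7 times above tumour 1 (23.7 to 56.2) and 2.04 times above tumour 2 (1.81 to 2.31). The fitted value was -1.95 (SE 1.54, adjusted p = 0.450). Exons of E2f8 overlap the transcript gene Gm2788 on the opposite strand, which had 2 and 24 counts in the tumours and 585 and 812 in the normal tables. Reads from the overlapping stretch may not be told apart, and 11.8% of the 31-base words of E2f8 are shared with other genes.

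The cyclin E genes, whose products activate CDK2 at the start of S phase, lay near or below normal liver in tumour 1, though above it under library size alone. Ccne1 had 54 counts in tumour 1, 406 in tumour 2 and 67 and 73 in the normal tables, which put tumour 1 at 0.474 times normal liver (0.326 to 0.686) and tumour 2 at 2.84 times (2.20 to 3.71). Ccne2 had 81 and 786 counts against 58 and 58, at 0.858 times normal liver in tumour 1, with an interval (0.605 to 1.22) that includes no difference. Ccne2 overlaps Ints8 on the opposite strand and shares 14.7% of its 31-base words with other genes.

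Homologous repair and checkpoint genes were above normal liver in both tumours in 7 of 8 cases, with a median fitted log2 fold change of 4.35. Exo1, the nuclease that trims broken ends, had 47 and 905 counts in tumours 1 and 2 against 1 and 1, and the largest fitted value of the group (7.77, SE 2.64, edgeR adjusted p = 0.156). In tumour 2 it was 443-fold above normal liver, with an interval of 79.3 to 17522 that the single normal count leaves wide. Brca2 was at the other end, with 153 and 1201 counts against 100 and 105 (1.74, SE 1.30, adjusted p = 0.425). Tumour 1 was at 0.922 times normal liver for Brca2 (0.713 to 1.20), so no difference was detectable there.

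Brca1, a partner in end processing, had 280 and 1735 counts against 34 and 38, and both tumours lay above the normal tables. The Fanconi anaemia genes of crosslink repair were lower in level: Fanca had 60 and 764 counts against 9 and 13, and Fancd2 39 and 916 against 3 and 6. Rad54l, a DNA motor protein gene, had 7 counts in tumour 1 and 452 in tumour 2 against 1 and 2, and differed between the tumours by 51.4-fold (24.8 to 129). The helicase gene Blm had 63 and 496 counts against 15 and 16, and Chek1, the checkpoint kinase that responds to stalled forks, 68 and 1019 against 10 and 13. Rad54l and Fanca share 14.5% and 10.5% of their 31-base words, and Brca2, Rad54l, Fanca and Fancd2 overlap genes on the opposite strand. The 4 genes Gins2, Uhrf1, Rad54l and Exo1 had at most 3 counts in each normal table, and their folds against normal liver are correspondingly imprecise.

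Each tumour was also set against normal liver alone, with no test because 1 library is set against 1. In tumour 2, 40 of the 42 genes were over 2-fold above normal liver and 2 (Mcm10 and E2f8) over 2-fold below, where 33.5% and 30.5% of the genes tested were. In tumour 1, 28 were over 2-fold above and 5 (Mcm10, Tk1, E2f7, E2f8 and Ccne1) over 2-fold below, where 29.7% and 29.3% were. The median log2 ratio of the 42 genes was 4.52 in tumour 2 and 1.67 in tumour 1. These counts take in all 42 genes with no minimum level. Both comparisons share the same normal library.

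**Figure D3:**
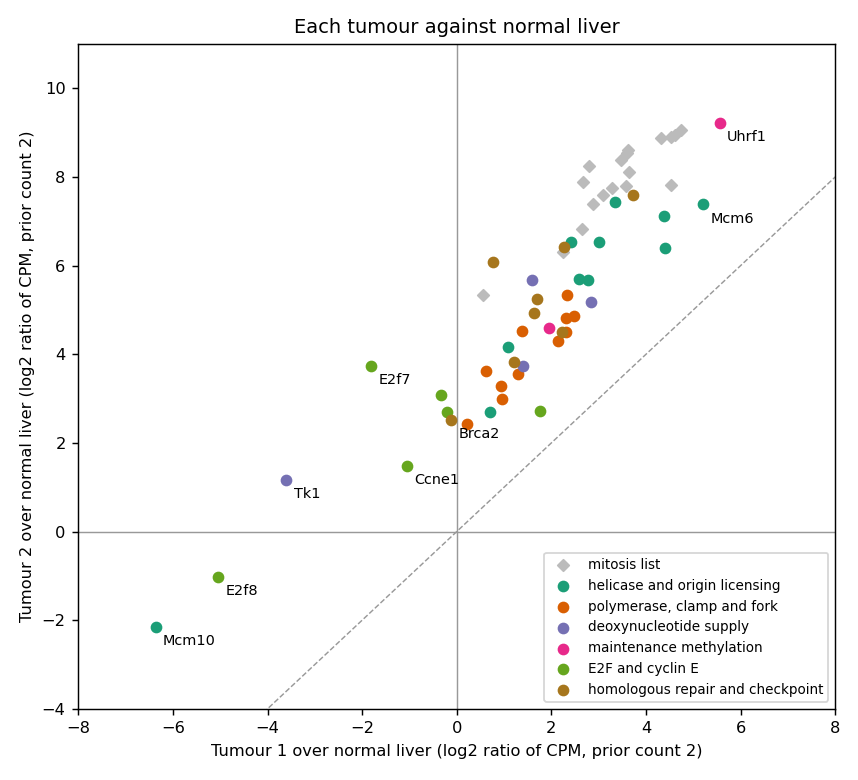
Log2 ratio to normal liver in tumour 1 (horizontal) and tumour 2 (vertical) for the 42 genes, coloured by function, and for 18 mitosis genes (grey diamonds); the dashed line marks equal ratios. All 42 genes lie above the line, Mcm10 and E2f8 are below 0 on both axes, and both axes share the normal library.

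Tumour 2 exceeded tumour 1 for every gene of the set. Of the 42 genes, 41 were over 2-fold higher in tumour 2, where 18.7% of the genes tested were, and 39 were over 4-fold higher, where 8.97% were, with no minimum level. The median log2 ratio was 2.91, against -0.01 over all genes compared (those with at least 10 CPM in either tumour, as all 42 had). By function, the median was lowest for polymerase, clamp and fork genes (2.35) and highest for homologous repair and checkpoint genes (3.42), with helicase and licensing (3.07), methylation (3.15), E2F and cyclin E (3.17) and deoxynucleotide genes (3.22) between. No test compared these groups, and their ranges overlapped: the fork genes spanned 2.02 to 3.13 and the repair genes 2.29 to 5.32. Tk1, next after E2f7 and Rad54l, was at 28.8 times tumour 1 (20.6 to 41.5), and Gins2 and Mcm7 followed E2f1 at the low end, at 4.01 (3.14 to 5.20) and 4.00 times (3.55 to 4.51). The 15 genes with an E2F site had a median of 3.0 and the 20 with a window but no such site 2.57.

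The 18 mitosis genes had a median log2 ratio of 4.50 between the tumours and a range of 3.29 to 5.46. The proliferation marker Mki67 measured 26.8 CPM in tumour 1, 596 CPM in tumour 2 and 2.63 CPM in normal liver. Top2a, the topoisomerase of dividing cells, measured 50.7, 1009 and 1.75 CPM in that order. The 28 genes of other repair routes (end joining, base and nucleotide excision, mismatch repair) work in all cell cycle phases. Their median was 0.20 over the 23 genes with at least 10 CPM in either tumour. The 18 housekeeping genes had a median of -0.19. Markers of other cells differed between the same libraries. The 7 fibroblast and stellate markers summed to 4.78 CPM in tumour 1, 693 CPM in tumour 2 and 109 CPM in normal liver, with Lrat at 0 in both tumours. The 5 leukocyte markers summed to 7.21 CPM in tumour 1, 0.322 CPM in tumour 2 and 20.5 CPM in normal liver, and the 6 bile duct markers to 2474, 2115 and 42.7 CPM. Spp1 gave most of the bile duct sum (1526 and 1585 CPM in tumours 1 and 2), while Epcam was at 24.0 and 0.215 CPM, Cftr at 31.4 and 0.376 CPM and Krt19 at 649 and 309 CPM. Other markers were low in both tumours against normal liver. The 6 endothelial markers summed to 0.539 and 1.13 CPM against 258 CPM, the 7 erythroid markers to 0.337 and 0.537 CPM against 84.7 CPM, and the 7 macrophage markers to 19.4 and 4.78 CPM against 155 CPM. The part of cell makeup in the differences between the tumours, and between them and normal liver, was not tested, and in bulk tissue fewer cycling cells and less RNA per cell cannot be told apart.

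**Figure D4:**
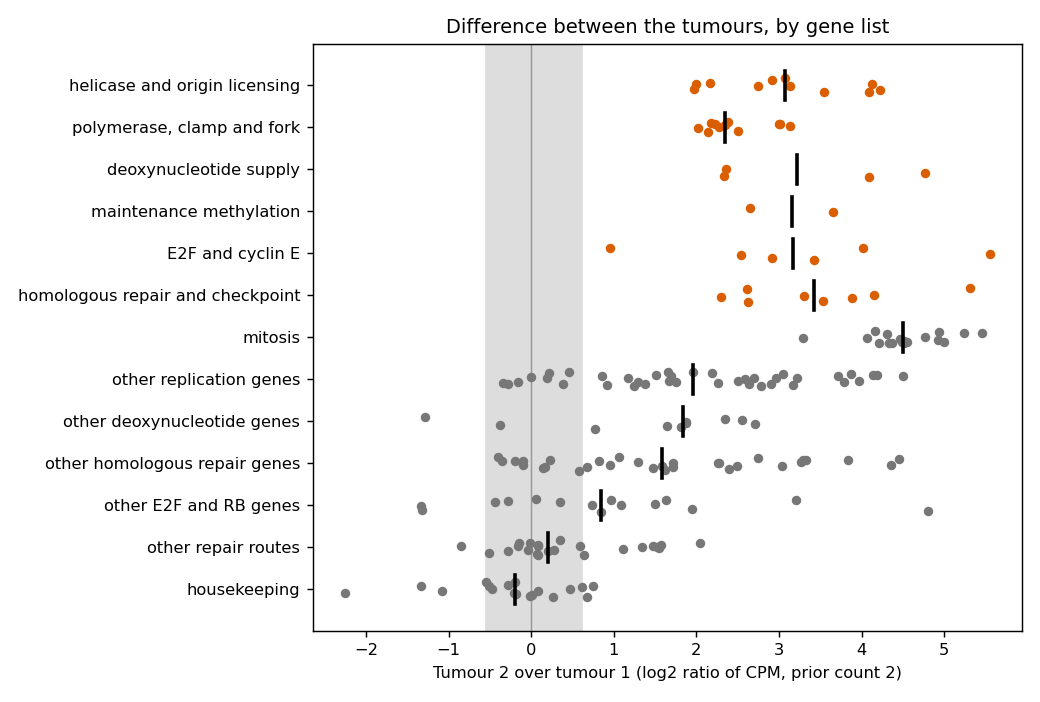
Log2 ratio of tumour 2 over tumour 1 (horizontal) for each gene of the lists on the vertical axis, with the replication and repair groups in orange, comparison lists in grey, a black bar at each list's median and a grey band over the middle 50% of all genes compared. Genes under 10 CPM in both tumours are left out. The orange medians lie between 2.35 and 3.42, mitosis at 4.50 and housekeeping genes at -0.19.

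Per kilobase of exon (GENCODE M21, a different build from the counts), the genes of highest mean tumour level were Mcm3 at 46.2, Rrm1 at 46.0 and Dnmt1 at 42.7 CPM per kb. The values differ by less than the spread between the tumours, which were at 7.25 and 85.1 CPM per kb for Mcm3 and at 11.7 and 73.6 for Dnmt1. The MCM2 to MCM7 ring holds 1 copy of each subunit. Its transcripts spanned 3.14-fold per kb in tumour 1, from Mcm5 to Mcm6, and 2.85-fold in tumour 2, from Mcm7 to Mcm3. In normal liver they spanned 14.1-fold, from Mcm6 at 0.326 to the uncertain Mcm7 at 4.59 CPM per kb. The lowest mean tumour levels per kb were those of E2f2 at 1.40 and E2f7 at 1.44.

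Another 102 genes of the same pathways, from lists on replication, deoxynucleotide supply, E2F and RB, and homologous repair, were examined in the same fit. None passed the test in either direction (0 of 102 higher and 0 lower by edgeR, adjusted p from 0.110 to 0.998; 18 higher and 1 lower at an unadjusted p under 0.05, where 12.5% and 15.5% of all genes were). Both tumours were above normal liver in 74 of the 102 (43.1% of all genes tested), and tumour 2 was above tumour 1 in 86 (49.6%). The median log2 ratio of tumour 2 to tumour 1 was 1.96 for other replication genes, 1.84 for other deoxynucleotide genes, 1.59 for other homologous repair genes and 0.84 for other E2F and RB genes. These medians cover genes with at least 10 CPM in either tumour (39 of 40, 10 of 10, 31 of 37 and 15 of 15, in that order). Some genes passed only through tumour 2, such as Eme1 at 0.741 and 17.9 CPM. The part of the filter in these medians was not tested. Genes with tumour 2 over 16-fold above tumour 1, named after their values were seen, included Cdc45l, the helicase partner of GINS (46 and 1097 counts in tumours 1 and 2). Others were Dscc1 (8 and 221), Clspn, the checkpoint mediator (29 and 877), Ccna2, cyclin A of S phase (140 and 4996), Recql4 (19 and 577) and Eme1 (11 and 334). The share of all genes past 16-fold was not computed, so how unusual such differences are cannot be said. Rb1, which restrains E2F, was instead higher in tumour 1, at 46.3 and 34.2 CPM against 24.6 CPM in normal liver, as were 15 other genes of these lists, among them Tfdp2, Rbl2 and Atm, likewise named after their values were seen.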

How the data were processed

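The authors deposited raw read counts per gene symbol, 1 table per library, with no normalization. The submitters' processing notes name TopHat2 2.0.10, HTSeq, Trimmomatic, FastQC, DESeq2 and mm9. Neither the annotation nor strand use is given in the sources used here. A further 5 lines per table name no gene and were left out. They hold alignments outside genes (13.6% to 31.5% of all counts in a table, these lines included), alignments that were not unique (30.7% to 51.5%) and ambiguous reads (at most 0.107%). Genes with copies elsewhere can lose reads this way, so genes with more than 10% of their 31-base words in another GENCODE M21 gene (1 word in 16 sampled) are named as shared; 12 of the 42 are.

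The tumours were compared with the mean normal library in R 4.3.3 with edgeR 4.0.16: TMM scaling, filterByExpr (minimum count 10), then glmQLFit with glmQLFTest, at a Benjamini-Hochberg adjusted p under 0.05, tested on simulated data first. This fit has 1 residual degree of freedom, and the common dispersion was 0.442. The SE, which is approximate, was taken from the fold change and its F statistic. Ratios of 1 library to 1 used a prior count of 2, and fold intervals are exact 95% binomial intervals that cover counting error only. DESeq2 1.42.0, other scalings, filters and normal libraries were alternatives.

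The 42 genes, the lists and the tests were chosen with earlier results of these data known. Values are given for the highest and lowest genes of each function, between the tumours and per length, and for the other members by function.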

Additional observations from a re-analysis of the deposited data

How the results depend on the processing

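The count of 0 genes called among the 42 held under other scalings, with either normal table alone and, for the 30 genes without shared sequence, in a fit without genes that share it. It became 5 higher with no filter on low counts (4.88% of all genes), 18 of 41 tested with both normal tables as separate libraries (22.6%) and 24 with DESeq2 (12.2%), with 0 lower in each. For the 166 other pathway and comparison genes, the count of 0 became 8 higher with no filter, 42 higher and 4 lower with separate normal tables (22.6% and 23.4% of all genes), and 49 higher and 1 lower with DESeq2 (12.2% and 12.8%); the cause was not tested. Without tumour 1 or tumour 2 the fit has no residual degree of freedom and gives values with no test: the median log2 fold change of the 42 genes was 4.58 without tumour 1 and 1.76 without tumour 2. Without tumour 2 the direction turned in 6 genes, whose values without tumour 2 and without tumour 1 were -3.68 and 1.16 for Tk1, -0.38 and 3.21 for E2f2, -2.15 and 3.86 for E2f7, -1.07 and 1.50 for Ccne1, -0.22 and 2.73 for Ccne2, and -0.12 and 2.53 for Brca2. Tk1 also turned against the wild type table alone (-0.17). With no filter on low values, tumour 1 had 28 genes over 2-fold higher and 5 lower (median log2 ratio 1.67). With the filter, a minimum of 10 CPM in either library, 16 were higher and 3 lower of 22 (2.27). All of these 16 except Dnmt1 were under 10 CPM in normal liver, so they passed the filter only because tumour 1 was high. The filtered share and medians in tumour 1 therefore follow in part from the filter, and nothing is concluded from them. Scaling by library size alone moved the median of all genes tested from 0.19 to 1.56, and the median log2 ratio to 3.51 in tumour 1 (25 genes at 10 CPM, against 2.27 for 22) and to 5.87 in tumour 2 (all 42, against 4.52). Under it the count over 2-fold lower in tumour 2 was 0, and under upper quartile scaling 1. The wider E2F site, ending in CGC or CGG, was found in 16 of the 35 genes (45.7%) and in 8.59% of genes tested. It was present in 42.3% of the other replication genes with a window and in 29.2% of the other homologous repair genes. No paired analysis was possible because the labels do not name the animals, so no tumour can be matched to a normal liver. Depth limits genes with at most 3 normal counts.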

Other observations

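A few genes of the same pathways stood above both tumours in normal liver, as Mcm10 and E2f8 did. Of the 102 further pathway genes, 9 did so: Pole4, Mcm9, Dna2, Shmt1, Tk2, Rbl2, Rad52, Fancm and Nbn, named after their values were seen, where 40.1% of all genes tested did so. Their log2 ratios of tumour 2 to normal liver ran from -2.06 in Shmt1 to -0.06 in Nbn. Dna2 (-0.13), Fancm (-0.07) and Rad52 (-0.07) were also nearly level there. Their directions under other scalings are not given here. Library size alone moved the median ratio of all genes compared in tumour 2 from 0.02 to 1.59. Shmt1, of one-carbon metabolism, had the widest gap, with 127 and 823 counts in tumours 1 and 2 and 1527 and 1847 in the normal tables. Dna2, a nuclease of lagging strand and repair, had 36 and 393 counts in the tumours (2.43 and 21.1 CPM) and 23.0 CPM in normal liver, and Fancm, the motor of the Fanconi core, 5.12, 25.3 and 26.6 CPM in tumour 1, tumour 2 and normal liver. None of the 9 passed edgeR's test (0 called, and 1, Shmt1, at an unadjusted p under 0.05).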
